A study of Caenorhabditis elegans with 12 samples.

Results

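The microRNA gene mir-243 of Caenorhabditis elegans gives a mature product from each arm of its precursor, listed as cel-miR-243-3p and cel-miR-243-5p and written here without the species prefix. Both were measured, as 2 of the 213 microRNAs in the table of normalised read counts (reads divided by a library size factor). They are all the rows of the gene. The gene was chosen by the known work of its 3p strand with the Argonaute RDE-1 and by the higher values of its 5p strand at day 5 than at day 0 in these same libraries. The age changes of the arms and of their ratio are therefore given as descriptions without a test. Tests are given only between the strains. The libraries of these tests, at day 0 and at day 5, are among those behind the choice.

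Small RNA was sequenced from whole worms of N2, the wild type, and of MT12993, a strain with the allele mir-71(n4115), in which mir-71 is deleted. Adults of each strain were taken at day 0 and at day 5, which makes 4 groups of 3 libraries. Worms of all groups were kept at 20 °C and put, just after the moult to adulthood, on plates with 0.1 mg/mL 5-fluorodeoxyuridine, a blocker of DNA synthesis used to keep progeny from developing. The number of worms behind a library is not given in the sources used here, and the mutant is represented by 1 strain.

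A microRNA precursor is a hairpin that Dicer cuts into a short duplex with a strand from each arm. As a rule one strand, the guide, stays in an Argonaute protein and is protected there, while the other, the passenger, is broken down. Most worm microRNA guides are bound by ALG-1 and ALG-2, which repress messenger RNAs through partial pairing. miR-243-3p is known instead as a strand bound by RDE-1, the Argonaute that takes up the primary small RNAs of RNA interference. It directs the making of secondary small interfering RNAs against a target message that it pairs with almost completely. miR-243-5p is the scarcer strand and is called the passenger here on that ground.

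mir-243 lies on chromosome IV at 4450779 to 4450876 of WBcel235, on the plus strand, in the Ensembl annotation (gene WBGene00003337, 98 bases). It sits in the first intron of transcript R08C7.12b.1, on the same strand, 568 bases after the end of exon 1 and 696 bases before the start of the next exon. RefSeq gives the same interval.

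In each library 100% of the values in the table were whole multiples of a single step, within 0.001, and the step was taken as the value of 1 read. Reads obtained in this way came to between 917170 and 4070663 per library over all microRNAs. The library medians of the normalised values still ran from 77.1 to 290, and the libraries thus stood at different overall levels. miR-71-5p, the guide strand of the deleted gene, stood between 90221 and 173431 normalised reads in the N2 libraries and between 52.5 and 189 in the mutants, and miR-71-3p was listed at 0 in each mutant library, so the level of mir-71 in each library went with its label. Every group had values above 0 for the markers of muscle (miR-1-3p), intestine (miR-60-3p) and glia (miR-228-5p), as whole animals should. In whole animals, fewer cells that make a microRNA and less of it per cell cannot be told apart.

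miR-243-3p, the RDE-1 strand, was a microRNA of middle abundance. In N2 at day 0 its 3 libraries held 392, 553 and 424 normalised reads, a mean of 457 ± 85.3 (SD, n = 3). In N2 at day 5 they held 415, 215 and 272, a mean of 301 ± 103. The 2 ages overlapped in N2, since the highest day 5 library lay above the lowest day 0 library. In the mutants at day 0 the libraries held 610, 372 and 672, a mean of 551 ± 159, and at day 5 they held 1251, 684 and 680, a mean of 871 ± 329. In the mutants the lowest day 5 library was just above the highest day 0 library, and replicate 1 at day 5 stood far above the other two.

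By rank within its own library, which no scaling of whole libraries can alter, miR-243-3p moved little. It ranked between 64 and 79 of the 213 microRNAs in each of the 12 libraries, with day 0 ranks of 65 to 76 and day 5 ranks of 64 to 79. Ordered by their means, the groups ran from the mutants at day 5 through the mutants at day 0 and N2 at day 0 down to N2 at day 5. Neighbours in this order overlapped except for the mutants at their 2 ages, whose nearest libraries were 680 and 672.

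miR-243-5p, the passenger strand, was scarce at day 0 and several times more abundant at day 5 in both strains. The N2 libraries held 9.92, 1.12 and 3.19 normalised reads at day 0, which correspond to 8, 1 and 2 sequenced reads, and the mean was 4.74 ± 4.60 (SD, n = 3). At day 5 they held 27.0, 18.0 and 19.9 normalised reads, from 22, 32 and 23 sequenced reads, with a mean of 21.6 ± 4.72. Each day 5 library of N2 lay above each day 0 library. In the mutants the day 0 libraries held 14.5, 1.39 and 7.37 normalised reads, from 16, 1 and 7 sequenced reads, a mean of 7.75 ± 6.55. At day 5 the mutants held 75.2, 21.8 and 41.2, from 61, 42 and 46 sequenced reads, a mean of 46.1 ± 27.1, again with no overlap between the ages. Replicate 1 was the highest library and replicate 2 the lowest in each of the 4 groups.

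The rank of miR-243-5p moved with age as well. It ranked between 187.5 and 205.5 of 213 at day 0, near the bottom of the table, and between 138 and 150.5 at day 5. A rank that is not whole stands for a tie. Ordered by their means, the groups ran from the mutants at day 5 through N2 at day 5 and the mutants at day 0 down to N2 at day 0. The libraries of the strains overlapped at each age, and those of the ages did not overlap in either strain.

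**Figure D1:**
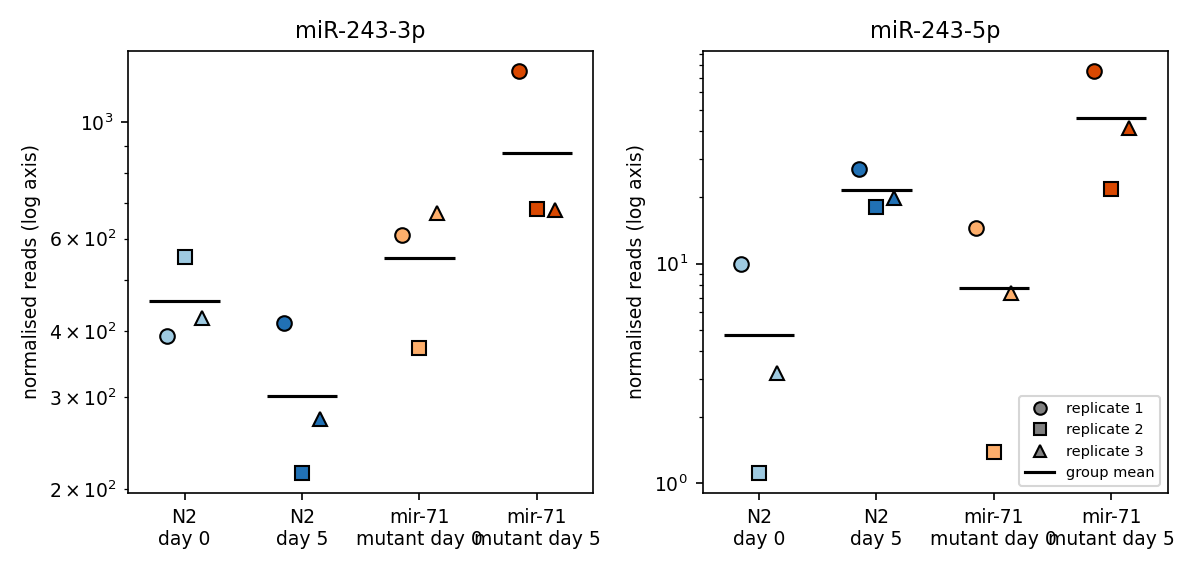
Normalised reads of miR-243-3p (left) and miR-243-5p (right) on log axes, by group. Each point is 1 library, its shape gives the replicate number, and bars are group means. The 5p points at day 5 (18.0 to 75.2) all lie above those at day 0 (1.12 to 14.5), while the 3p points of N2 overlap between the ages.

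After adding 1 and taking log2, a scale that makes the changes of low values look smaller, miR-243-5p differed by 2.28 ± 0.73 between day 5 and day 0 in N2 and by 2.63 ± 0.73 in the mutants (limma SE). With 1 library left out the 5p change in N2 lay between 1.72 (without replicate 2 at day 0) and 2.90 (without replicate 1 at day 0). In the mutants it lay between 1.88 and 3.23 when the same 2 replicates at day 0 were left out in turn. The ratios of the group means were 4.56 in N2 and 5.95 in the mutants. miR-243-3p differed by −0.64 ± 0.41 in N2 and by 0.64 ± 0.41 in the mutants, with ratios of the means of 0.659 and 1.58. The 3p values thus had opposite signs in the 2 strains, each within 2 SE of 0. The difference between the strains' age changes was 1.28 ± 0.58 for 3p and 0.35 ± 1.04 for 5p on the log2 scale (mutants minus N2), and it was not tested.

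These changes are read against those of all microRNAs. The median change with age over the 211 microRNAs other than mir-71 was −0.49 in N2 and 0.28 in the mutants. Relative to that median, miR-243-5p had 2.77 in N2 and 2.35 in the mutants, and miR-243-3p had −0.15 and 0.36. Rescaling the libraries to equal totals, by a trimmed mean of M-values or to equal medians shifted the N2 median by 0.00, 0.39 and 0.52 and the mutant median by −0.53, −0.22 and −0.10. In the deposited log2 values the 5p change was 0.94 in N2 and 1.29 in the mutants, and with 5 in place of 1 added it was 1.54 and 2.00. Under the 3 scalings the 5p change lay between 2.36 and 2.83 in N2 and between 2.17 and 2.54 in the mutants, and the sign of the 3p change was kept in both strains, although it came down to −0.10 in N2 with equal medians and 0.11 in the mutants with equal totals.

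Many other microRNAs changed with age. In N2 limma called 23.7% of the 211, with 7.58% higher and 16.1% lower at day 5 (Benjamini-Hochberg adjusted p under 0.05). In the mutants it called 13.7%, with 9.95% higher and 3.79% lower. The day 5 libraries lay wholly above the day 0 libraries for 12.3% of the microRNAs in N2 and 18.5% in the mutants, and wholly below them for 35.1% and 8.53%. Since its higher values at day 5 chose miR-243-5p, nothing is read from its place among these. The 29 microRNAs called in the mutants were 67 with the replicate number as a block. Of single day 0 libraries, leaving out N2 replicate 2 or 3 took the 50 calls of N2 to 10 or 26, and leaving out mutant replicate 1 or 3 took the 29 calls of the mutants to 44 or 14. Of single day 5 libraries, leaving out N2 replicate 2 gave 22 calls in N2, and leaving out mutant replicate 3 gave 6 in the mutants.

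Taking the 5p strand as a share of both arms removes the scaling of the libraries altogether. The log2 ratio given further on has 1 added to each value, so some dependence on the scaling remains there. That ratio was not fitted under the 3 scalings. The 5p strand made up 2.47%, 0.201% and 0.746% of the mir-243 reads in the N2 libraries at day 0, a mean of 1.14% ± 1.18 (SD, n = 3). At day 5 it made up 6.09%, 7.73% and 6.80%, a mean of 6.88% ± 0.820. In the mutants the share was 2.32%, 0.373% and 1.09% at day 0, a mean of 1.26% ± 0.984, and 5.67%, 3.09% and 5.71% at day 5, a mean of 4.82% ± 1.5. No day 5 library of either strain had a share as low as the highest day 0 library.

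Counting error is wide where the 5p strand had few reads. In replicate 2 of N2 at day 0, with 1 of 497 reads, the exact (Clopper-Pearson) 95% interval of the share ran from 0.00509% to 1.12%. In replicate 1, with 8 of 324 reads, it ran from 1.07% to 4.81%, which reaches past the lower bound of 3.86% for replicate 1 at day 5. In replicate 2 of the mutants at day 5, with 42 of 1358 reads, it ran from 2.24% to 4.16%. These intervals rest on the reading of the values as whole reads and cover counting error only, since reads without molecular identifiers are not independent molecules.

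**Figure D2:**
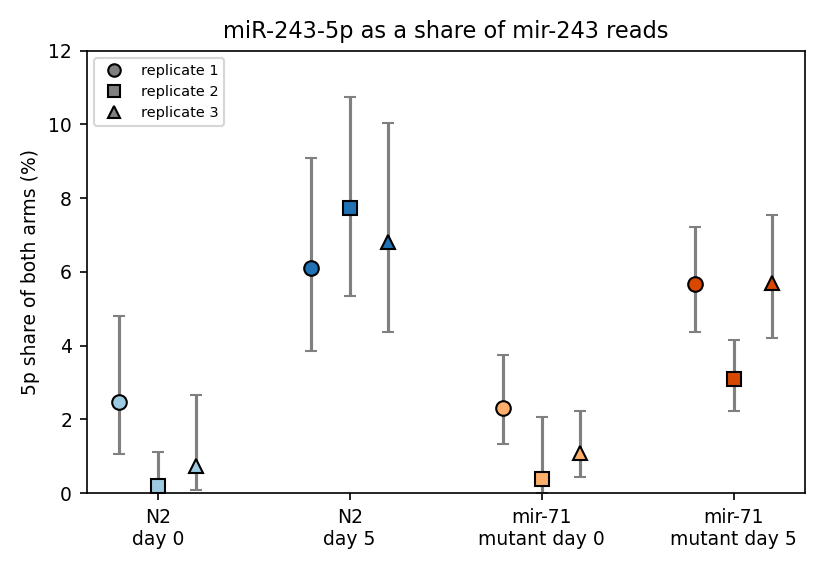
Share of miR-243-5p in the reads of both mir-243 arms, in percent, by group. Each point is 1 library, its shape gives the replicate number, and bars are exact 95% binomial intervals. Day 0 shares run from 0.201% to 2.47% and day 5 shares from 3.09% to 7.73%, with the N2 libraries at day 5 above the mutants.

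The log2 ratio of 5p to 3p, with 1 added to each value, differed by 2.92 ± 0.66 between day 5 and day 0 in N2 and by 1.99 ± 0.66 in the mutants (limma SE). With 1 library left out it lay between 2.21 (replicate 2 of day 0 left out) and 3.65 (replicate 1 of day 0 left out) in N2. In the mutants it lay between 1.496 (replicate 2 of day 0 left out) and 2.49 (replicate 1 of day 0 left out). The size also depended on the value added. With 5 in place of 1 it was 2.17 in N2 and 1.36 in the mutants, below these ranges, and with 0.5 it was 3.10 and 2.12.

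Arm ratios could be formed for 61 genes other than mir-71, of which 40 had 5p as the less abundant arm, mir-243 among them. Among the 61, mir-243 had the highest change of the ratio in N2 and the third highest in the mutants. The median change was −0.07 in N2 and −0.27 in the mutants. For 9.84% of the 61 genes, 6 in all, the ratio was higher at day 5 without overlap in both strains, and mir-243 is 1 of these 6 by the values that chose it. In 13.1% it was lower without overlap in both strains. In single strains it was higher without overlap in 18.0% of the genes in N2 and 16.4% in the mutants, and lower in 18.0% and 31.1%. At day 0 the less abundant arm of mir-243 had a share like that of other genes, ranking 28 from the lowest of 61 in N2 and in the mutants, with medians over genes of 2.43% and 2.401%. At day 5 it ranked 37 in both strains, with medians over genes of 1.68% and 1.80%.

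For 45 genes each arm had a mean of at least 20 normalised reads. Among these, averaged over the strains, the 3 largest positive changes of the ratio were those of mir-239a, mir-51 and mir-243 itself. The mean of miR-243-5p, 20.0, lies just above that limit. Its means of 4.74 (N2) and 7.75 (mutants) at day 0 were below the limit, and those of 21.6 and 46.1 at day 5 above it. It passed through the day 5 values that chose it, so nothing is read from its place. The 3 changes came about through different arms. For mir-239a, a gene studied in stress and lifespan, the scarcer 5p went from 7.24 ± 4.34 to 34.2 ± 26.7 normalised reads in N2 (SD, n = 3), and the ratio rose by 2.41 ± 0.66 (limma SE, adjusted p = 0.0255). For mir-51, of a family needed for embryonic development, the scarcer arm is 3p, which went from 72.7 ± 31.6 to 22.3 ± 8.96 in N2, and the ratio rose by 2.16 ± 0.53 (limma SE, adjusted p = 0.0133). In the mutants the ratio rose by 2.90 ± 0.66 for mir-239a (limma adjusted p = 0.00883) and by 2.78 ± 0.53 for mir-51 (adjusted p = 0.00276). In N2 mir-243 resembled mir-239a in that the scarcer 5p arm was the one with the higher mean at day 5. In the mutants each arm of mir-243 and of mir-239a had a higher mean at day 5 than at day 0. There the mean 5p share of mir-239a went from 18.0% to 61.3%, so that 5p was its more abundant arm at day 5. The 5p share of mir-243 in the mutants stayed low, at 4.82% at day 5.

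The 3 lowest changes were those of mir-39, mir-36 and mir-40, members of the mir-35 family of germline and embryo. Their ratios fell by 3.32, 3.20 and 2.95 in N2 and by 4.33, 3.74 and 3.49 in the mutants, and all passed in both strains (limma adjusted p between 5.51e-05 and 0.00921). In these genes the 3p guides had higher means at day 5 and the 5p passengers lower means. In N2 miR-36-5p held 47.5 ± 11.5 normalised reads at day 0 and 15.2 ± 6.35 at day 5 (SD, n = 3). limma called 6.56% of the 61 ratios higher in N2 and 3.28% in the mutants. It called 6.56% and 8.20% lower.

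**Figure D3:**
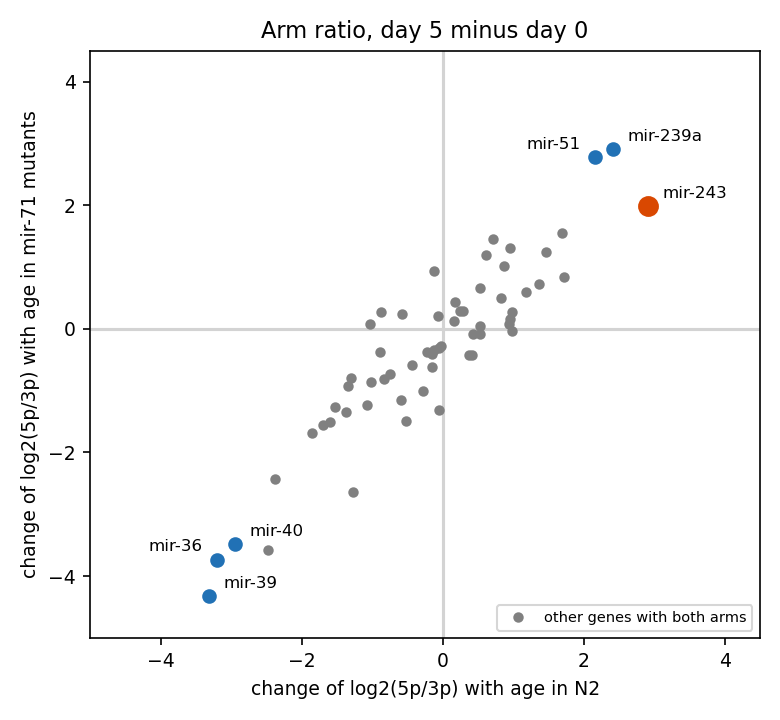
Change of the log2 ratio of 5p to 3p between day 0 and day 5 in N2 (x axis) and in mir-71 mutants (y axis) for 61 genes with both arms measured. Each point is 1 gene; mir-243 is orange and the other named genes blue. mir-243 stands at 2.92 and 1.99, beside mir-239a and mir-51, and opposite mir-39, mir-36 and mir-40.

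Between the strains, miR-243-3p at day 5 was the one measure of the arms that passed the test. At day 0 the mutants stood above N2 in miR-243-3p by 0.24 ± 0.41 on the log2 scale (limma SE, adjusted p = 0.966), with a 95% interval of −0.63 to 1.11. miR-243-5p had 0.56 ± 0.73 (adjusted p = 0.966) with an interval of −0.995 to 2.11, which leaves room for a large difference either way. The trimmed mean of M-values took the 3p value to −0.05, and leaving out mutant replicate 1 took the 5p value to −0.04. limma called 0% of the 211 microRNAs between the strains at this age, although 5 reached an unadjusted p under 0.05. The libraries of both strains overlapped for both arms, as they did for most microRNAs, with 3.32% apart on the higher and 1.42% on the lower side.

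At day 5 miR-243-3p was higher in the mutants, by 1.52 ± 0.41 on the log2 scale (limma SE, adjusted p = 0.0190) with a 95% interval of 0.65 to 2.396. The 3 mutant libraries, at 680 to 1251 normalised reads, lay above the 3 N2 libraries, at 215 to 415, and the ratio of the means was 2.90. The strains also stood apart as shares of the library: per 1000000 normalised reads the mutants had 249, 365 and 273 and N2 had 195, 161 and 134. The ranks of miR-243-3p within the libraries overlapped, at 74, 64 and 71 in the mutants and 66, 77 and 79 in N2. Many microRNAs were higher in the mutants at that age, with 22.7% of the 211 called higher, 0% called lower, and 41.2% without overlap on the higher and 0.474% on the lower side. The median difference was 0.98, and relative to it miR-243-3p had 0.54.

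The call on miR-243-3p depended on the scaling. The difference was 0.85 with equal totals (limma adjusted p = 0.0981), 0.58 with the trimmed mean of M-values (adjusted p = 0.241) and 0.68 with equal medians (adjusted p = 0.234), over which the median of all microRNAs came to 0.32, 0.05 and 0.15. It was also not called when replicate 2 of N2 (1.31, limma adjusted p = 0.0917) or replicate 1 of the mutants (1.23, adjusted p = 0.0861) at day 5 was left out. Over all its alternatives the adjusted p ran from 0.00459 to 0.241. The difference was positive in all 22 of them, but several could not alter it and left it at 1.52. These were the filter on the mean, the compared groups alone, robust moderation, the replicate block and leaving out a day 0 library. The 48 microRNAs called at day 5 were 96 with the replicate block, and the count rested on single libraries. Leaving out mutant replicate 1 or 3 of day 5 gave 1 or 25 calls, leaving out N2 replicate 1 or 2 of day 5 gave 6 or 3, and leaving out mutant replicate 2 of day 0 gave 75.

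miR-243-5p at day 5 had a log2 difference of 0.91 ± 0.73 between mutants and N2 (limma SE, adjusted p = 0.343) with an interval of −0.65 to 2.46, and its libraries overlapped between the strains. Relative to the median of all microRNAs it had −0.08. The trimmed mean of M-values turned its sign, to −0.01. Per 1000000 normalised reads the ranges also overlapped, with 12.7, 13.5 and 9.79 in N2 and 15.0, 11.7 and 16.5 in the mutants.

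**Figure D4:**
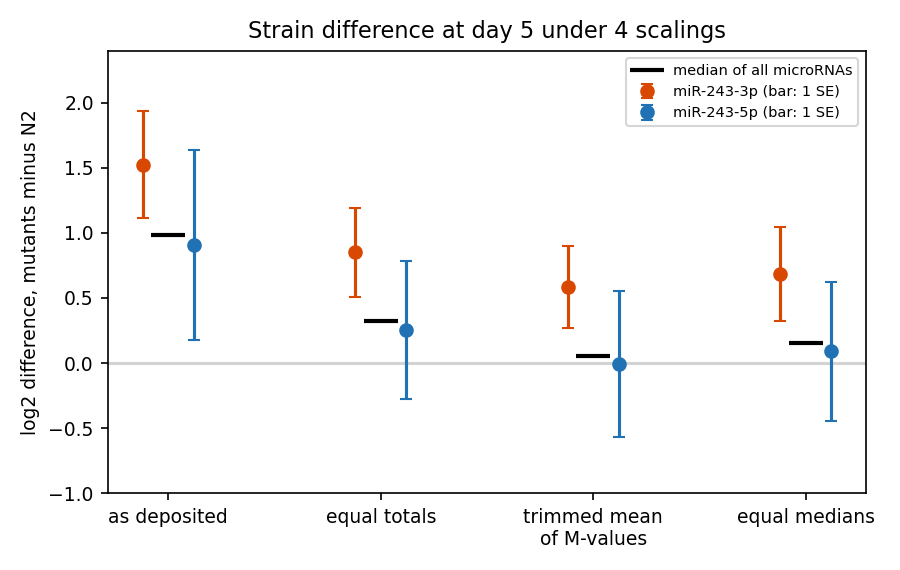
Log2 difference between mir-71 mutants and N2 at day 5 for miR-243-3p (orange) and miR-243-5p (blue) under the deposited scaling and 3 others. Points are limma estimates, error bars 1 SE, and black bars the median of 211 microRNAs. The 3p estimate stays above the median under each scaling, going from 1.52 to between 0.58 and 0.85, and the 5p estimate lies near the median.

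The 5p share at day 5 was lower in the mutants than in N2 by the order of the libraries, since the highest mutant share, 5.71%, lay below the lowest N2 share, 6.09%. The means differed by −2.05 percentage points (exact permutation test, two-sided, p = 0.1, the smallest p that 3 against 3 libraries allow). On the log2 ratio the difference was −0.62 ± 0.66 (limma SE, adjusted p = 0.570) with an interval of −2.03 to 0.80, so the difference did not pass. The median difference of this ratio over the 61 genes other than mir-71 was −0.36. Of the 61 genes, 21.3% had a lower ratio of 5p to 3p in the mutants at day 5 without overlap. A higher ratio without overlap was found in 8.2%. limma called 1.64% of the 61 ratios higher in the mutants and 0% lower. At day 0 the shares differed by 0.120 percentage points (exact permutation test, two-sided, p = 0.8) and the log2 ratio by 0.32 ± 0.66 (limma SE, adjusted p = 0.806). The sign of both day 0 values depended on single libraries. The share difference became −0.41 percentage points without replicate 1 of the mutants, and −0.35 and −0.08 without replicates 2 and 3 of N2. The log2 ratio became −0.18 without the same mutant library and −0.39 without replicate 2 of N2.

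The microRNAs with profiles nearest to each arm across the 12 libraries are given as a description. The profile of miR-243-5p includes the higher day 5 values that chose the gene. Nothing is therefore read from the distance between the arms or from their different neighbours. Likeness was measured as the root mean square difference between log2(value + 1) profiles, each centred on its own mean, a measure from which library scaling nearly cancels out. The profile of miR-243-3p was nearest to those of miR-228-5p (0.28), miR-65-5p (0.33), miR-1022-5p (0.34) and miR-356b-3p (0.36), against a median of 0.75 over all others. All 4 have lower means at day 5 in N2 and higher means at day 5 in the mutants, with miR-228-5p, the glial marker, at 39360 and 27282 normalised reads in N2 and at 45419 and 63797 in the mutants. None of these age changes was called (limma adjusted p of 0.0505 for miR-1022-5p in N2 and higher for the rest). The median change of the 211 microRNAs other than mir-71 had the same signs, at −0.49 in N2 and 0.28 in the mutants. The other arm of mir-243 lay at 1.46, in place 198 of 212 from miR-243-3p. From miR-243-5p, whose profile is far from most others, the same distance put the 3p arm in place 97.

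The profile of miR-243-5p was nearest to that of miR-39-3p, a guide of the mir-35 family, at 0.40, followed by miR-63-5p (0.56), miR-34-5p (0.56), linked to ageing and stress, and miR-36-3p (0.57), again of the mir-35 family. The median over all others was 1.48. All 4 were picked for likeness to a profile with higher values at day 5, so their own calls with age add no support. miR-63-5p and miR-34-5p were called higher with age in both strains, miR-39-3p in N2 (limma adjusted p = 0.0418) but not in the mutants (adjusted p = 0.113), and miR-36-3p in neither (adjusted p = 0.124 and 0.213). miR-34-5p had means of 456 and 1409 normalised reads at day 0 and day 5 in N2 and of 648 and 3016 in the mutants. miR-39-3p held 30459, 6514 and 13051 normalised reads in N2 at day 0 and 76953, 45357 and 84410 at day 5. In the mutants it held 59171, 5021 and 25515 at day 0 and 138866, 41241 and 73178 at day 5. Its libraries stood in the same order as those of miR-243-5p within each group but N2 at day 5.

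**Figure D5:**
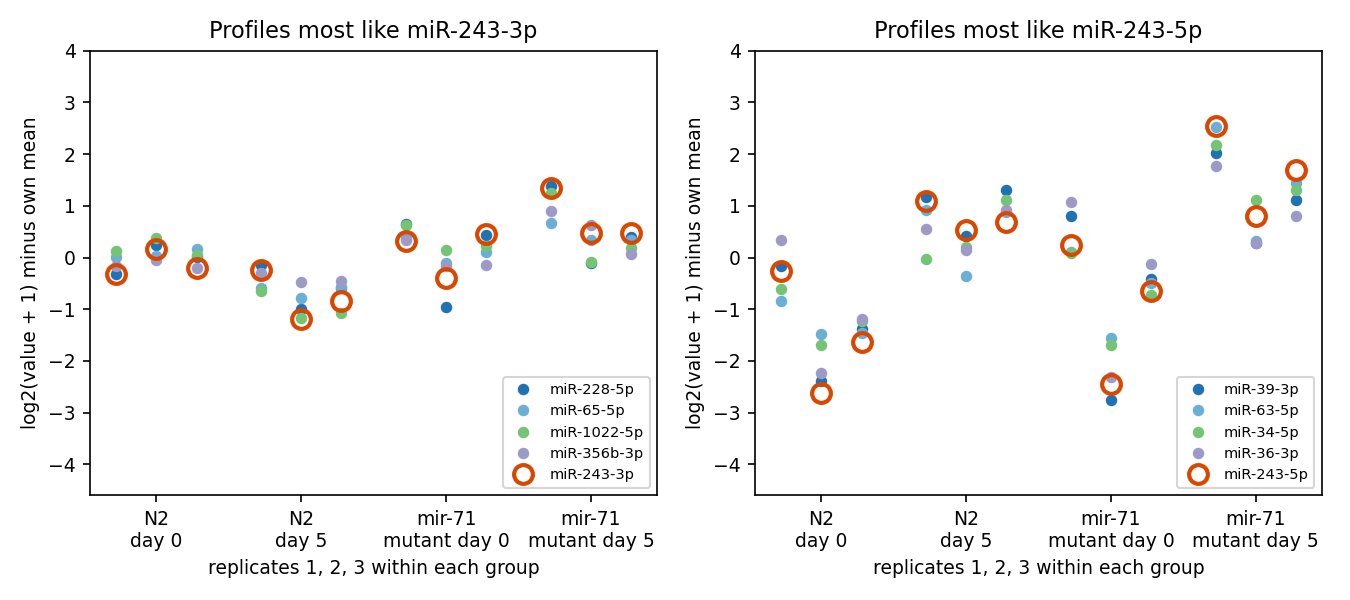
Log2(value + 1) of each arm (open orange circles) and of the 4 microRNAs most like it (filled points), each minus its own mean over the 12 libraries, with replicates 1, 2 and 3 side by side in each group. miR-243-3p runs from −1.19 to 1.35 around its mean, and miR-243-5p lies low in replicate 2 at day 0 of both strains together with miR-39-3p and miR-36-3p.

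Markers of germline and embryo were partly higher at day 5, as was the 5p strand. The summed level of 8 products of mir-35 family genes, 7 of them guides of the 3p arm and the other miR-41-5p, ran from 23253 to 98159 normalised reads in N2 at day 0 and from 143522 to 238246 at day 5, and from 14265 to 155035 and from 108217 to 346096 in the mutants. limma called 4 of the 8 products higher at day 5 in N2 and 2 of 8 in the mutants, beside 7.58% and 9.95% of all microRNAs called higher. None was called lower, and none was at 0 in any library. miR-41-5p had −0.03 in N2 and −0.73 in the mutants on the log2 scale. At day 0 the sum was 98159, 23253 and 39983 in replicates 1, 2 and 3 of N2 and 155035, 14265 and 78487 in the mutants, the same order as the 5p level and the 5p share in both strains. At day 5 the sum was 204396, 143522 and 238246 in N2, an order shared by neither the 5p level nor the share. In the mutants at day 5 it was 346096, 108217 and 166915, the order of the 5p level but not of the share. The part of these markers in the values of miR-243-5p was not tested. Of the other markers, those of muscle, intestine and glia were not called with age in either strain, while lsy-6 of the taste neurons fell by 2.08 on the log2 scale in N2 (limma adjusted p = 0.0447), where it was listed at 0 in 1 library of day 5. miR-790-5p, 1 of 3 nervous-system markers, fell by 1.48 in N2 (limma adjusted p = 0.0199). Between the strains at day 5, where miR-243-3p was called higher in the mutants, several markers were called higher as well, beside 22.7% of all microRNAs. They were miR-60-3p of the intestine (1.5 on the log2 scale, limma adjusted p = 0.0482), lsy-6 (3.35, adjusted p = 0.00953), and 2 of 3 nervous-system markers, miR-124-3p (1.86, adjusted p = 0.0262) and miR-790-5p (1.47, adjusted p = 0.0220). The markers of muscle and glia and the 8 mir-35 family products had no call there. The part of these markers in the level of miR-243-3p was not tested.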

How the data were processed

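Small RNA libraries of whole worms, 3 in each of 4 groups, were grouped and numbered by their titles. For 213 microRNAs the authors deposited a non-negative signal, described as normalised counts, and a log2 version whose transformation is not stated, used only as an alternative. STAR 2.4.0h, DESeq2 and WBcel235 are named in the submitters' processing notes. The sources used here do not give trimming or the rules for counting, strand and multiple mapping, so reads shared with near-identical microRNAs are uncertain. Sequences were not used here. The members, lists and tests were chosen with earlier results of these data known.

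To the deposited values 1 was added and log2 taken. Group means of all 12 libraries were fitted, with a mean-variance trend, in limma 3.58.1 under R 4.3.3 for all 213 microRNAs and for all 62 arm ratios. Tests were two-sided, and a call is a Benjamini-Hochberg adjusted p under 0.05. Counts leave out mir-71. No filter on low values was applied, and the lowest mean was 5.65. Shares were compared with exact permutation tests (scipy 1.17.1). The limma fit for age in N2 was also run on simulated data with known changes, drawn independently for each library. That simulation held no library-wide shifts and no pairing of replicates, so it does not cover these. The submitters call the replicates biological, without saying what was grown separately. The limma p-values set a difference against the spread between the libraries within the 4 groups. The permutation p-values set it against the differences obtained when the libraries are relabelled.

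The microRNAs named beside the arms are the 4 nearest in profile to each arm, the 3 highest and 3 lowest arm-ratio changes, and the cell type markers. A comparison by shared bases 2 to 8 was planned and not made. Alternatives covered the pseudocount, a filter, 3 scalings, the deposited log2 values, the compared groups alone, robust moderation, a replicate block and leaving out each library. Same-numbered libraries deviated alike from their group means between the strains (correlations across microRNAs of 0.247 to 0.56 at day 0 and 0.335 to 0.466 at day 5) and between the ages of the mutants (0.113 to 0.386), so the numbers were taken to pair these libraries. They did not between the ages of N2 (−0.0195 to 0.128). The main fits and the permutation tests left the pairing out. It entered only as the replicate block among the alternatives.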

Additional observations from a re-analysis of the deposited data

How the results depend on the processing

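The replicate block changed no call on either arm or on their ratio, with adjusted p of 0.00459 for miR-243-3p, 0.129 for miR-243-5p and 0.456 for the arm ratio between strains at day 5. It called 86 microRNAs and 13 arm ratios with age in N2, 67 and 13 in the mutants, and 96 microRNAs between strains at day 5. miR-243-3p between strains at day 5 lost its call with equal totals (0.85), trimmed mean scaling (0.58) and equal medians (0.68), and lay between 1.23 and 1.78 with 1 library left out. Its age change moved to 0.11 in the mutants with equal totals and to −0.10 in N2 with equal medians. In the deposited log2 values, the age change of miR-243-5p was 0.94 in N2 and 1.29 in the mutants, and the cause was not tested. With equal totals 94 (age in N2), 71 (age in mutants) and 28 (strains at day 5) microRNAs were called. The trimmed mean of M-values gave 77, 65 and 26, and equal medians gave 75 in the mutants and 29 at day 5. With the compared groups alone the counts were 79 in N2 and 3 in the mutants, and 13 arm ratios with age in the mutants and 0 between strains at day 5. With 1 library left out, the counts of microRNAs ran from 10 to 67 with age in N2, 6 to 44 in the mutants and 1 to 75 between strains at day 5. Those of arm ratios ran from 2 to 17, 6 to 14, 0 to 3 (strains at day 0) and 0 to 2 (strains at day 5). The few reads of miR-243-5p at day 0, 1 to 16 in a library, limit what can be said of its level there.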
